A study of Mus musculus with 6 samples.

Results

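The gene group described here holds 8 genes tied to the exit of mature thymocytes from the thymus: the Krüppel-like factor genes Klf2, Klf3 and Klf13, the forkhead genes Foxo1 and Foxp1, the sphingosine-1-phosphate receptor genes S1pr1 and S1pr4, and Cd69. The members were taken by symbol from the platform annotation, which gave all 8 genes, with 26 probes in all, out of 18193 genes with a single symbol and 45037 non-control probes. Expression in sorted mouse thymocytes was measured on 6 arrays, with 2 arrays at each of 3 stages. Every animal carried the N15 T cell receptor transgene in the homozygous state, lacked RAG-2, was of the H-2b haplotype and was 5 to 6 weeks old. RAG-2 is needed to assemble receptor genes, so that the transgene supplies the receptor and the thymocytes do not hold a normal range of receptors. The stages were double-positive (DP) cells, which are CD4+CD8+ and labelled immature, CD4intCD8+ cells, labelled maturing, and CD8 single-positive (CD8SP) cells, which are CD4-CD8+ and labelled mature. The labels give 6 mice and a pair of independent experiments, but tie no array to given animals, and the p-values therefore cover no more than the array-to-array spread, which may in part be technical.

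Thymocytes that have passed selection leave the thymus by following sphingosine-1-phosphate, a lipid that is scarce in tissue and abundant in blood, through the G protein-coupled receptor S1PR1. Klf2 is a zinc-finger transcription factor that activates S1pr1, and Foxo1 is a forkhead factor, held in the cytoplasm by PI3K and Akt signalling, that activates Klf2, Il7r and Ccr7. CD69, a surface lectin induced by receptor signals, binds S1PR1 and draws it from the cell surface, so that its loss in mature cells is part of the known exit program.

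All arrays were on a common scale, with median intensities from 24.9 to 25.7. The ratio of the 3' to the 5' actin control signal, higher where RNA is degraded, lay between 1.98 and 2.62 on 5 arrays and was 3.47 on CD4intCD8+ replicate 2. All 7 T cell and thymocyte markers on the array passed the filter on dim genes, and their summed intensity was 13981 and 12834 on the CD8SP arrays, against 17947 and 18979 on the DP arrays. Endothelial cells are rich in both Klf2 and S1pr1. The summed intensity of 6 endothelial markers was 249 and 225 on the CD8SP arrays, against 304 and 260 on the DP arrays, and the defining markers Cdh5 (7.47 and -1.74 on the CD8SP arrays) and Vwf (9.01 and 2.89) were near 0. The list did not move one way: Eng was at 114 and 104 in CD8SP and 96.7 and 83.9 in DP cells and Kdr at 48.3 and 38.4 in CD8SP and 34.9 and 35.0 in DP cells, neither of them called, while Pecam1 was lower, at 60.1 and 65.6 in CD8SP and 148 and 100.1 in DP cells. The median log2 change of the 3 endothelial markers that passed the filter was 0.26 in CD8SP over DP. Of 5 natural killer cell markers on the array 1 passed the filter, Nkg7, a granule gene that CD8 T cells also express, with 1250.1 and 1105 on the CD8SP arrays and 164 and 123 on the DP arrays. The whole list summed to 1356 and 1176 in CD8SP and 209 and 175 in DP cells, and the markers under the filter differed among themselves. Ncr1 was at 51.6 and 23.9 in CD8SP and 25.5 and 22.9 in DP cells and Eomes at 53.7 and 29.6 in CD8SP and 17.1 and 27.2 in DP cells, while the receptor genes Klra8 (-0.67 and 9.43) and Klre1 (1.06 and 7.51) were near 0 in CD8SP cells. Of 5 B cell markers, summing to 245 and 247 in CD8SP and 173 and 214 in DP cells, Cd79b was higher in CD8SP cells (0.90 on the log2 scale, limma adjusted p = 0.0118) and Cd79a was at 12.9 and 9.48. The part of such cells in the results was not tested. In bulk samples fewer cells that express a gene and less RNA per cell cannot be told apart.

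Klf2, Foxo1, S1pr1 and S1pr4 were higher in CD8SP than in DP cells, by 1.90 to 5.27-fold, while Klf3, Klf13, Foxp1 and Cd69 did not pass the test. Log2 changes are of the intensity plus a pseudocount of 5.84, which understates the change of dim genes, and a gene was called at a limma adjusted p under 0.05 over 10916 genes. Klf2 intensities were 676 and 351 in DP cells, 1413 and 755 in CD4intCD8+ cells and 1717 and 1755 in CD8SP cells. The stages did not overlap, but the arrays of DP and of CD4intCD8+ lay far apart while the CD8SP arrays nearly coincided. The means were 513 ± 229 in DP, 1084 ± 465 in CD4intCD8+ and 1736 ± 26.7 in CD8SP cells (SD, n = 2 each). Klf2 was 3.53-fold higher in CD8SP than in DP cells (1.82 ± 0.32 on the log2 scale, SE; limma adjusted p = 0.00485). S1pr1, the receptor for exit, had intensities of 42.8 and 18.6 in DP cells, 99.1 and 71.5 in CD4intCD8+ cells and 209 and 148 in CD8SP cells, again without overlap. It showed the largest change of the 8 genes, 2.40 ± 0.32 on the log2 scale or 5.27-fold in CD8SP over DP (adjusted p = 0.00122). In DP cells S1pr1 was above the filter for dim genes, an intensity of 30.8, on replicate 1 and well under it on replicate 2. The gene therefore passed this filter through the later stages, and the size of its change depends on the pseudocount. With a pseudocount of 32 in place of 5.84 its change in CD8SP over DP was 1.76, no larger than that of Klf2 at the same setting.

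Foxo1 moved less and with less scatter. Its brightest probe gave 393 and 343 in DP cells, 499.8 and 498 in CD4intCD8+ cells and 735 and 674 in CD8SP cells, a log2 change of 0.93 ± 0.12 in CD8SP over DP (1.90-fold, adjusted p = 0.00125). S1pr4, a second sphingosine-1-phosphate receptor of lymphocytes, had intensities of 172 and 188 in DP and of 266 and 196 in CD4intCD8+ cells, so that CD4intCD8+ replicate 2 lay close to the DP arrays, and of 539 and 444 in CD8SP cells. It was 1.41 ± 0.17 higher on the log2 scale in CD8SP than in DP cells (2.67-fold, adjusted p = 0.000868). These 4 were the only members called in CD8SP over DP, all of them higher, against 11.5% of all genes tested that were called higher and 19.8% called in either direction. With the replicate number as a block 5 members were called, against 30.0% of all genes. The median log2 change was 0.54 over the 8 members and 0.01 over all genes tested. The members were chosen with earlier results of these data known, so that such comparisons with all genes are a description only. Arrays of the pair of stages did not overlap for 6 of the 8 members, against 61.5% of all genes. Each of the 4 rises was called under all 16 other settings of the processing, with changes from 1.35 to 2.29 for Klf2, from 0.74 to 1.02 for Foxo1, from 1.76 to 2.89 for S1pr1 and from 1.28 to 1.60 for S1pr4. The highest adjusted p of the 4 was 0.0363, for Klf2 without DP replicate 2.

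**Figure D1:**
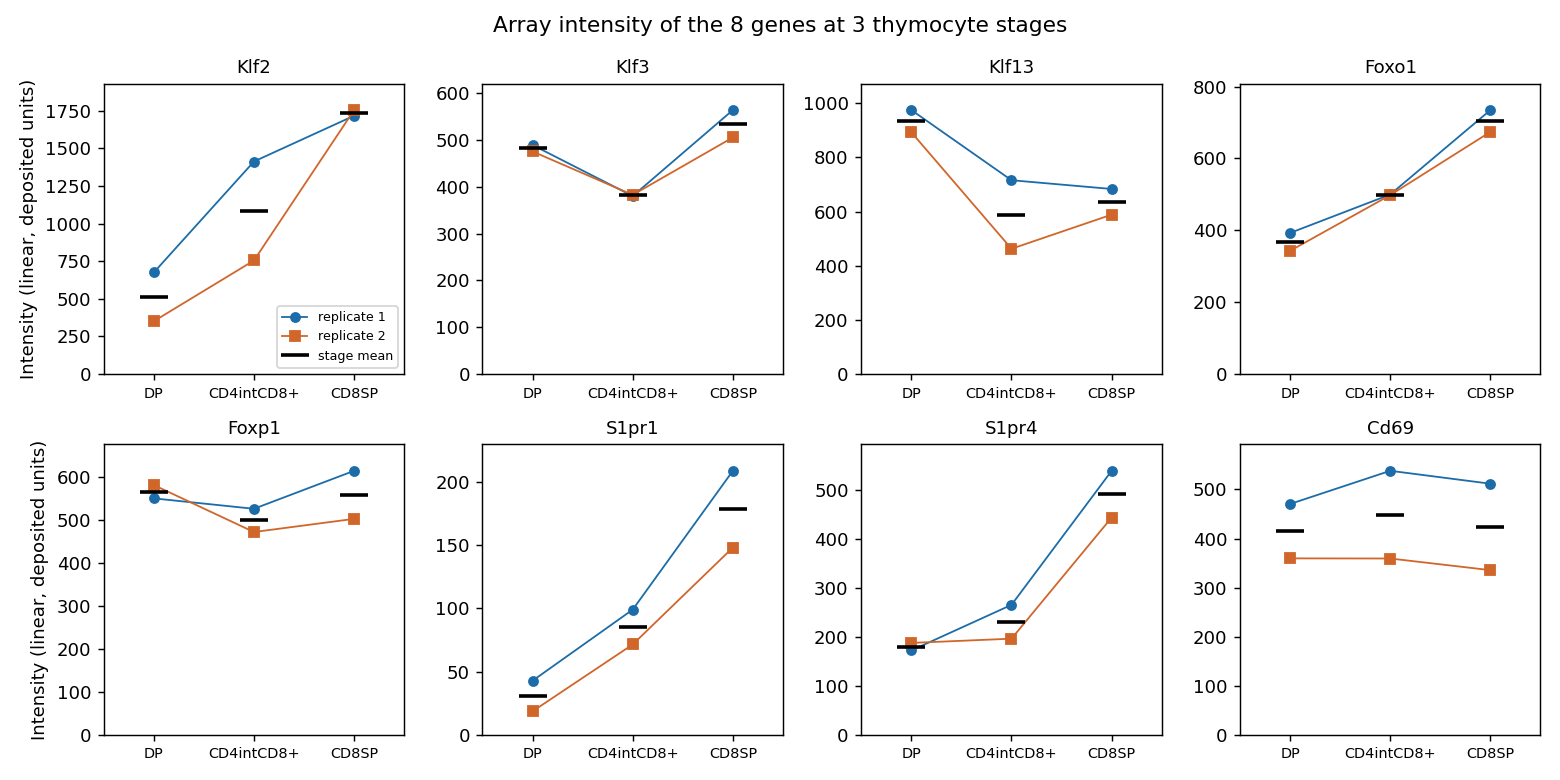
Deposited array intensity (linear scale from 0) of the brightest probe of each gene in DP, CD4intCD8+ and CD8SP cells. Points are single arrays joined by replicate number, and bars are means over the 2 arrays; Klf2, Foxo1, S1pr1 and S1pr4 are highest in CD8SP cells, while Cd69 lies between 336 and 538 at every stage.

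Promoter sequence from RefSeq (GRCm38.p6), 250 bases before to 50 bases after each gene's start, was matched for 6 of the 8 genes in 8 windows; the unmatched genes were S1pr1 and Cd69. The windows of Klf2, Foxo1 and S1pr4 are shown because these genes were all higher in CD8SP cells. CACCC, the core of Krüppel-like factor sites, and TGTTTAC, a forkhead core, were searched on both strands, with no overlap between their matches, and matches are in capitals (GGGTG is CACCC read on the other strand). The windows lie at chr8:72318812-72319111 (plus strand), chr3:52268087-52268386 (plus strand) and chr10:81500088-81500387 (minus strand), each written along its gene's strand.
Klf2: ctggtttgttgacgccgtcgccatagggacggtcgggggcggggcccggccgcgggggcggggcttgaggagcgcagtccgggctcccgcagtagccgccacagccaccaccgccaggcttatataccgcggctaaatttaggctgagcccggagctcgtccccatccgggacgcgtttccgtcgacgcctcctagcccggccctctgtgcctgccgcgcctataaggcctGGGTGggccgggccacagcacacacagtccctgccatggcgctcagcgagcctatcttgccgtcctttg
Foxo1: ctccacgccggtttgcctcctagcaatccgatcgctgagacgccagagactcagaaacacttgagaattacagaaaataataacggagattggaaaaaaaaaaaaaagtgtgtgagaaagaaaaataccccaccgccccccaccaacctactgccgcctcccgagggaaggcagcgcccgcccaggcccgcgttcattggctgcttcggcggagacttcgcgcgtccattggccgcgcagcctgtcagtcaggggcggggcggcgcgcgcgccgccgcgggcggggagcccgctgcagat
S1pr4: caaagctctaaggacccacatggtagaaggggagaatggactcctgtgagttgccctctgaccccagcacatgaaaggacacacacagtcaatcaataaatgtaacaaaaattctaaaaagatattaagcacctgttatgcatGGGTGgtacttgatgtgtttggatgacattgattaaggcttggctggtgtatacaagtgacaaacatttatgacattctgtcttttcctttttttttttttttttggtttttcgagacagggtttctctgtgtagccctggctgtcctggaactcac
CACCC occurred once in the Klf2 window, beginning 19 bases before the start, once in the S1pr4 window, beginning 107 bases before it, and 0 times in the Foxo1 window, while 57.5% of all 32851 windows held it. TGTTTAC occurred 0 times in the 8 windows of the members, against 3.65% of all windows. The Klf3 window held 5 matches of CACCC and the Klf13 window 1, and the 3 windows of Foxp1, which had no called change, held 2, 0 and 3. The windows differed in base composition, with a GC content of 69.3% for Klf2, 61.3% for Foxo1 and 41% for S1pr4.

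At the first step S1pr1 was higher and Klf13 lower in CD4intCD8+ than in DP cells. S1pr1 rose by 1.38 ± 0.32 on the log2 scale (limma adjusted p = 0.0254), with both CD4intCD8+ arrays above both DP arrays. The S1pr1 call was lost without DP replicate 2, the array with the lowest S1pr1 signal (0.89, adjusted p = 0.120), and without the intensity trend (adjusted p = 0.0513). Klf2 was at 1.07 ± 0.32 (adjusted p = 0.0599) and Foxo1 at 0.44 ± 0.12 (adjusted p = 0.0510), and neither passed the test. Klf2 was called with the actin ratio as a covariate (1.86, adjusted p = 0.00509), without DP replicate 1 (1.54, adjusted p = 0.0470) and without CD4intCD8+ replicate 2 (1.52, adjusted p = 0.0124). Foxo1 was called with a 60th percentile filter (adjusted p = 0.0433), which made 3 members called, and with quantile normalization (adjusted p = 0.0414). Both passed with the replicate number as a block (adjusted p = 0.00289 and 0.0126). Within replicates 1 and 2 the Klf2 change was 1.06 and 1.09. The S1pr4 change was 0.33 ± 0.17 (adjusted p = 0.241), at 0.61 and 0.06 within replicates 1 and 2. Together 2 of 8 members were called at this step, 1 higher and 1 lower, against 11.7% of all genes, and 5 were called with the block, against 23.5%. Without DP replicate 2 the count was 0, when 187 genes were called in all. Arrays did not overlap for 7 of the 8 members, against 58.7% of all genes.

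From CD4intCD8+ to CD8SP cells limma called 0 of the 8 members and 0.119% of all genes. At an unadjusted p under 0.05 the counts were 5 members and 9.61% of all genes, and arrays did not overlap for 5 members, against 38.8% of all genes. S1pr4 came nearest, at 1.08 ± 0.17 (2.11-fold, adjusted p = 0.0781). S1pr4 was called without CD4intCD8+ replicate 1, the higher of the CD4intCD8+ arrays (1.29, adjusted p = 0.0138), and when the actin ratio entered as a covariate (0.90, adjusted p = 0.0357). With the block 4 members were called, all higher, against 2.08% of all genes: S1pr4 (adjusted p = 0.00647), S1pr1 (1.01 ± 0.18, adjusted p = 0.0166), Foxo1 (0.49 ± 0.10, adjusted p = 0.0383) and Klf3 (0.48 ± 0.10, adjusted p = 0.0457). Klf2 was at 0.75 ± 0.32 (adjusted p = 0.503, and 0.0844 with the block). The Klf2 change was 0.28 within replicate 1 and 1.21 within replicate 2.

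The difference between the steps was tested as the second change minus the first. For S1pr4 it was 0.74 ± 0.30 (95% interval 0.07 to 1.42) and for Klf2 -0.33 ± 0.55 (-1.58 to 0.92). It was -0.37 ± 0.55 for S1pr1 and 0.05 ± 0.21 for Foxo1. None of the 8 members was called by limma (S1pr4 adjusted p = 0.362), against 0.00916% of all genes, which is 1 gene. At an unadjusted p under 0.05 there were 3 members, Klf3, Klf13 and S1pr4, and 12.7% of all genes. With the block none of the 8 members was called either, against 215 of 10916 genes. Klf3 (limma adjusted p = 0.0511) and Klf13 (0.0692) came nearest there. The order of the levels was DP, CD4intCD8+, CD8SP for Klf2, Foxo1, S1pr1 and S1pr4. Without the block DP and CD4intCD8+ were told apart by the test for S1pr1, and CD4intCD8+ and CD8SP for 0 of these 4. With the block DP and CD4intCD8+ were told apart for Klf2, Foxo1 and S1pr1, and CD4intCD8+ and CD8SP for Foxo1, S1pr1 and S1pr4.

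**Figure D2:**
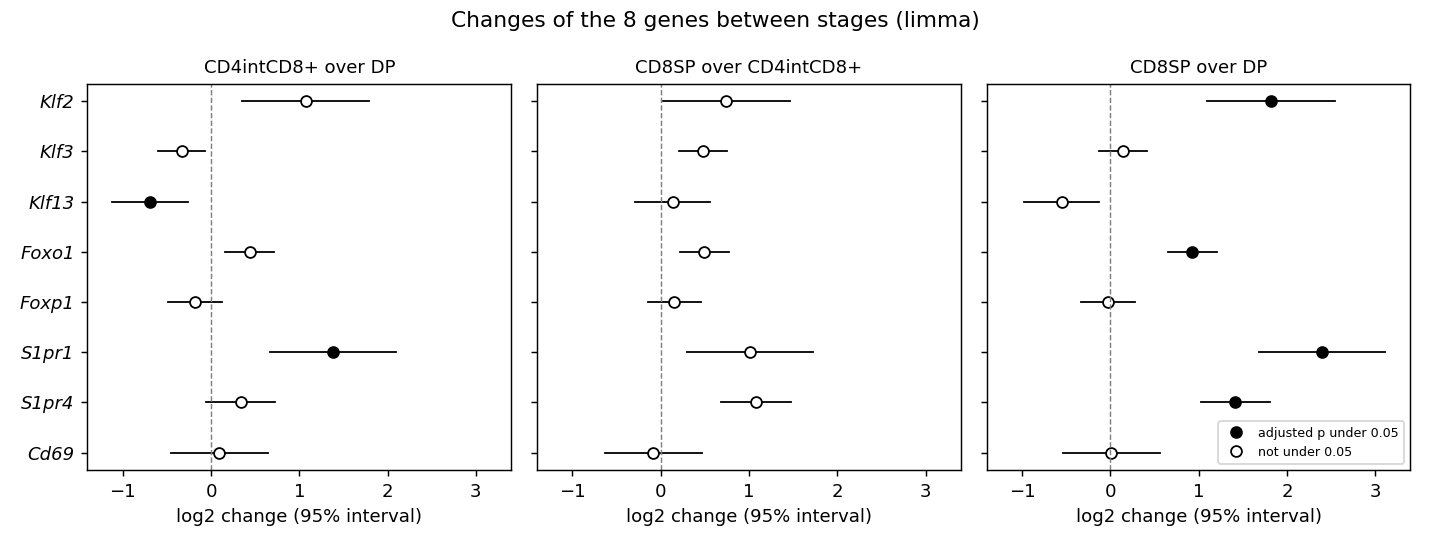
Log2 change of each gene with its 95% interval from limma, for CD4intCD8+ over DP, CD8SP over CD4intCD8+ and CD8SP over DP. Filled points passed an adjusted p of 0.05: S1pr1 and Klf13 in the first comparison, 0 genes in the second, and Klf2, Foxo1, S1pr1 and S1pr4 in the third.

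Klf3 and Klf13 gave no called rise without the block. Klf3, a family member that acts mainly as a repressor, had intensities of 489 and 475 in DP cells, 380.03 and 383 in CD4intCD8+ cells and 564 and 505 in CD8SP cells, with the lowest values at the CD4intCD8+ stage. Its log2 changes were -0.33 ± 0.12 in CD4intCD8+ over DP (adjusted p = 0.0999, and 0.0414 with the block) and 0.14 ± 0.12 in CD8SP over DP (adjusted p = 0.439). Klf13, known in T cells as an activator of the chemokine gene Ccl5, gave 715 and 462 in CD4intCD8+ and 974 and 892 in DP cells, without overlap, and its log2 intensity fell by 0.69 ± 0.19 (adjusted p = 0.0461). In CD8SP cells Klf13 was 683 and 588, a change of -0.55 ± 0.19 from DP (adjusted p = 0.0699, and 0.00705 with the block). The Klf13 call in CD4intCD8+ over DP was lost under 8 of 16 other settings. With CD4intCD8+ replicate 2 left out, whose actin ratio was 3.47, the change was -0.38 (adjusted p = 0.237), and adding the actin ratio as a covariate gave -0.16 (adjusted p = 0.705). The call was also lost without DP replicate 1 (adjusted p = 0.210) and without DP replicate 2 (adjusted p = 0.135).

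Foxp1, a forkhead repressor that helps keep mature T cells quiescent, showed no called change. Its brightest probe gave 549.98 and 581 in DP cells, 526 and 472 in CD4intCD8+ cells and 614 and 502 in CD8SP cells, and the CD8SP arrays lay on either side of the DP arrays. The 95% interval of its log2 change in CD8SP over DP was -0.33 to 0.28. For Cd69 the intensities were 470.4 and 359.6 in DP cells, 538 and 359 in CD4intCD8+ cells and 512 and 336 in CD8SP cells, and all 3 stages overlapped. The Cd69 log2 change in CD8SP over DP was 0.01 ± 0.24 (adjusted p = 0.982), with an interval of -0.54 to 0.56, and of -0.23 to 0.25 with the block. Each interval gives the changes of Cd69 transcript that its fit leaves possible, and surface CD69 protein was not measured. With the actin ratio as a covariate the change of Cd69 in CD4intCD8+ over DP was 0.73 (adjusted p = 0.108).

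Replicate 1 was above replicate 2 at all 3 stages for Klf13, Foxo1, S1pr1 and Cd69, which is 4 of 8 members against 18.1% of all genes tested. For Klf2 this held in DP and CD4intCD8+ cells. The actin 3' to 5' ratio was higher in replicate 2 than in replicate 1 at each stage, by 2.14 against 1.98 in DP, 3.47 against 2.37 in CD4intCD8+ and 2.62 against 2.28 in CD8SP cells. With that ratio as a covariate Klf2 was 2.22 and S1pr1 2.70 higher in CD8SP than in DP cells (adjusted p = 4.24e-05 and 4.26e-05). Replicate number and actin ratio moved together at every stage. Every CD4intCD8+ and CD8SP array also had a higher ratio than either DP array. As a covariate the ratio therefore cannot be fully separated from stage.

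Of the 26 probes 22 passed the filter on dim probes, and the probes of 1 gene, which share its RNA, were compared as a description of how far they agree. Each of the 3 brighter Foxo1 probes was higher in CD8SP than in DP cells in the fit of single probes (log2 changes from 0.93 to 1.01), where 13.9% of all probes were called. The annotation gives the same source sequence for these 3 probes, so that they are not separate measures of the gene. In CD4intCD8+ over DP, with 7.45% of all probes called, 1 of them was called, the dimmest of the 3, at 0.69 ± 0.17 (adjusted p = 0.0424). The fourth Foxo1 probe averaged an intensity of 12.1 and was not tested. All 7 tested Foxp1 probes had log2 changes below 0 in CD4intCD8+ over DP (from -0.76 to -0.18) and above 0 in CD8SP over CD4intCD8+ (from 0.15 to 0.55), with 0 calls in either comparison. Several of these Foxp1 probes also share a source sequence. The Klf13 probe with a mean intensity of 719 had a CD8SP over DP change of -0.55 ± 0.19, while the probe with a mean of 664 had -0.14 ± 0.14, and of the pair the dimmer one was called in CD4intCD8+ over DP (-0.62 ± 0.14, adjusted p = 0.0305).

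The Klf3 probes disagreed in CD8SP cells. All 6 tested probes were below 0 in CD4intCD8+ over DP (from -0.59 to -0.21), and 1 of them passed the test there, with a mean intensity of 207 (-0.59 ± 0.15, adjusted p = 0.0467). From CD4intCD8+ to CD8SP cells, where 0.0858% of all probes and 0 member probes were called, 4 of the 6 were above 0 and 2 below. The probe with a mean intensity of 52.4 had intensities of 30.3 and 39.3 in CD8SP and 61.3 and 78.4 in DP cells, so that its log2 intensity fell by 0.90 ± 0.25 (adjusted p = 0.0429), whereas the brightest had a change of 0.14 ± 0.12. Which transcripts these probes match was not analysed here. Averaging all Klf3 probes gave -0.26 in CD8SP over DP (adjusted p = 0.271) in place of 0.14. Klf2, S1pr1, S1pr4 and Cd69 each rested on 1 probe.

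**Figure D3:**
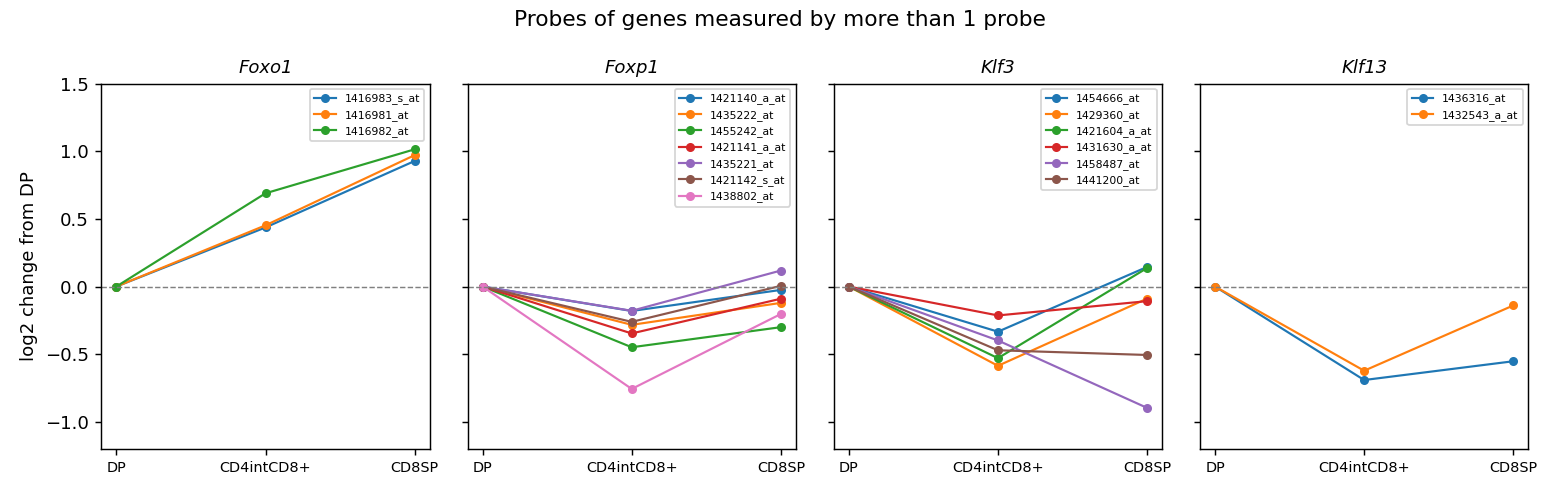
Log2 change from DP, by limma on single probes, at the CD4intCD8+ and CD8SP stages for the genes with more than 1 tested probe. Each line is 1 probe set at 0 in DP; the 3 Foxo1 probes end between 0.93 and 1.01, the 7 Foxp1 probes lie below 0 at the CD4intCD8+ stage with 0 calls, and the 6 Klf3 probes end between -0.90 and 0.14.

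Genes listed as known targets of Klf2 or Foxo1 changed in both directions. Of 9 tested genes of this list outside the members, 5 were higher and 2 lower in CD8SP than in DP cells and 2 were not called, against 11.5% and 8.35% of all genes called higher and lower. Their median log2 change was 1.12, against 0.01 over all genes. The list was chosen with earlier results of these data known, so that these comparisons with all genes are a description only. Il7r, the interleukin-7 receptor alpha chain needed for survival outside the thymus, had intensities of 152 and 318 in CD8SP and 28.8 and 24.2 in DP cells, without overlap (2.81 ± 0.30, adjusted p = 0.000415). Both DP values of Il7r lie under the filter intensity of 30.8, which the gene passed through the later stages, so that the size of its change depends on the pseudocount and was 2.12 with one of 32. Ccr7, a chemokine receptor that guides mature cells into the medulla and lymph nodes, had 496 and 343 in CD8SP and 139 and 73.2 in DP cells (1.97 ± 0.33, adjusted p = 0.00416). Itgb7, an integrin beta chain, rose by 1.51 ± 0.20 (adjusted p = 0.00115), Sesn3, a stress-response gene, by 1.18 ± 0.14 (adjusted p = 0.000797) and the survival gene Bcl2 by 1.12 ± 0.14 (adjusted p = 0.000908). The genes that fell are known as inhibitors of the cell cycle. Cdkn1b, a cyclin-dependent kinase inhibitor gene, gave 449 and 305 in CD8SP and 796 and 822 in DP cells and fell by 1.12 ± 0.17 (adjusted p = 0.00237). Rbl2, a retinoblastoma family gene, fell by 0.79 ± 0.14 (adjusted p = 0.00497). Sesn1 (-0.25 ± 0.12) and Btg1 (-0.11 ± 0.15) were not called. These 7 CD8SP over DP calls held under the 16 other settings.

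**Figure D4:**
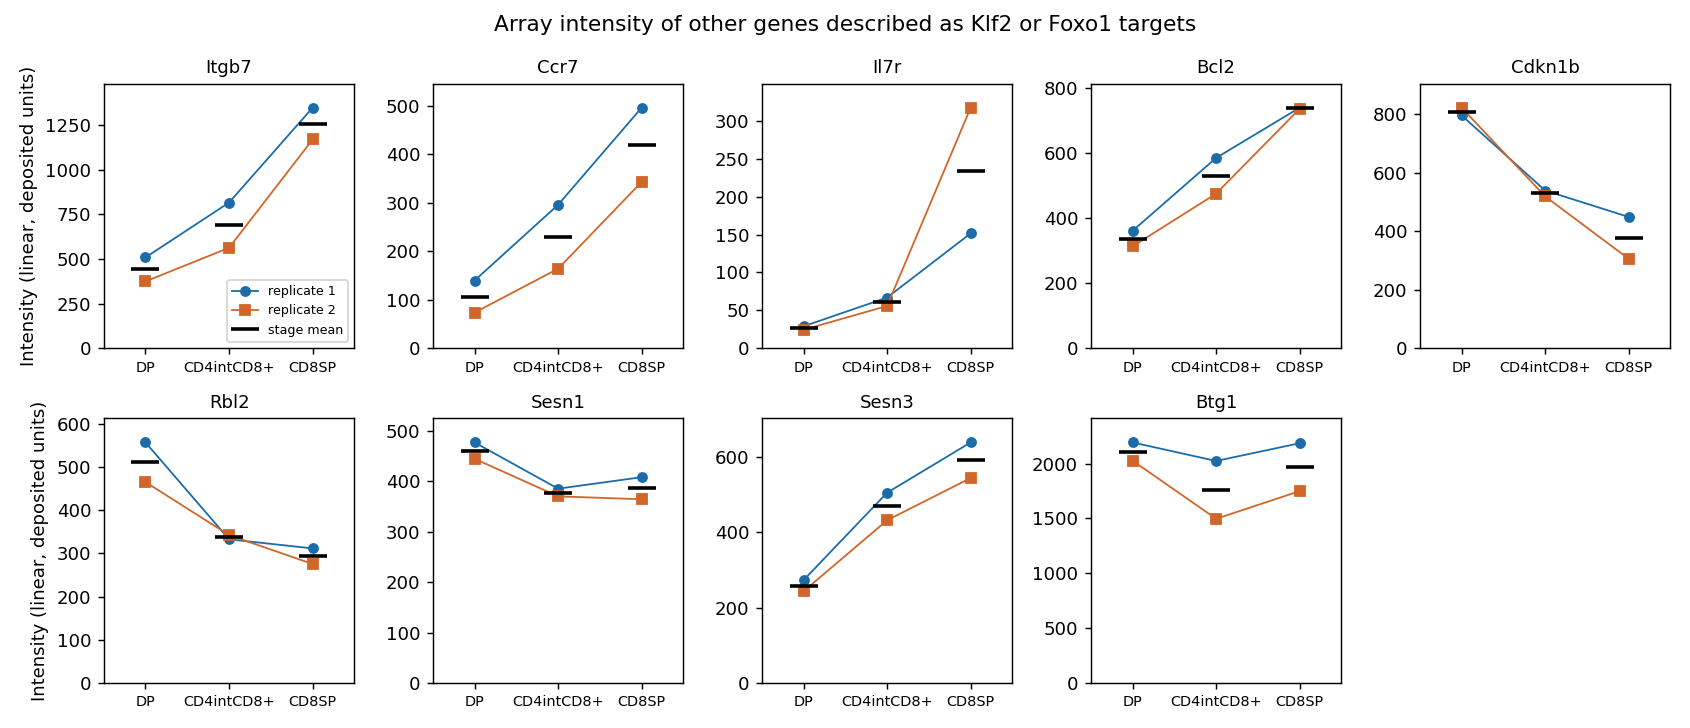
Deposited array intensity (linear scale from 0) of the 9 other genes of the Klf2 and Foxo1 target list on the brightest probe of each. Points are single arrays joined by replicate number and bars are means over the 2 arrays; Itgb7, Ccr7, Il7r, Bcl2 and Sesn3 are highest in CD8SP cells, while Cdkn1b and Rbl2 are highest in DP cells.

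In CD4intCD8+ over DP 2 genes of the same list rose, Sesn3 (0.84 ± 0.14, adjusted p = 0.00926) and Bcl2 (0.64 ± 0.14, adjusted p = 0.0210), and Cdkn1b and Rbl2 fell by 0.61 and 0.58 (adjusted p = 0.0494 and 0.0284), against 6.86% and 4.84% of all genes called higher and lower. With the block 5 were higher and 3 lower, against 23.5% of all genes in either direction. Without DP replicate 2 all 4 were lost, at adjusted p of 0.0682 for Sesn3, 0.119 for Bcl2, 0.181 for Cdkn1b and 0.0664 for Rbl2. Without DP replicate 1 the adjusted p was 0.0649 for Bcl2, 0.174 for Cdkn1b and 0.176 for Rbl2. Leaving out CD4intCD8+ replicate 1 gave 0.0817, 0.0728 and 0.0724 for these 3 genes, and leaving out CD4intCD8+ replicate 2 gave 0.160 for Cdkn1b and 0.0998 for Rbl2. With the mean of all probes Bcl2 was at 0.32 (adjusted p = 0.246), and without the intensity trend the Bcl2, Cdkn1b and Rbl2 calls were lost (0.0517, 0.0921 and 0.0573). The Cdkn1b and Rbl2 calls were also lost with the actin ratio (0.3997 and 0.222), and that of Cdkn1b under 4 further settings (from 0.0506 to 0.222). In CD8SP over CD4intCD8+ 0 of the 9 genes were called, against 0.119% of all genes. With the block 3 were called, all higher, against 2.08% of all genes. They were Il7r (1.76 ± 0.27, adjusted p = 0.0114), Ccr7 (0.89 ± 0.13, adjusted p = 0.00990) and Itgb7 (0.88 ± 0.10, adjusted p = 0.00398).

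Of 8 tested Klf genes outside the members, 0 rose and 1, Klf7, fell in CD8SP against DP cells, against 11.5% and 8.35% of all genes called higher and lower. Klf7 intensity was 162 and 163 in CD8SP and 258 and 281 in DP cells (-0.71 ± 0.13, adjusted p = 0.00678). This call was lost without DP replicate 2, where the change was -0.65. Klf7 was already lower in CD4intCD8+ cells, at 181 and 169.9 (-0.60 ± 0.13, adjusted p = 0.0228, lost without either DP array or CD4intCD8+ replicate 2, and with the actin ratio). With the block Klf16 was also called in CD8SP over DP, higher (0.43 ± 0.13, adjusted p = 0.0296), and Klf10 lower (-0.55 ± 0.16, adjusted p = 0.0254), against 30.0% of all genes in either direction. Among 4 tested Foxo and Foxp genes, Foxo4 was the 1 called in CD8SP over DP, lower (-0.62 ± 0.18, adjusted p = 0.0391), against 19.8% of all genes. The Foxo4 call was lost without any 1 of the DP or CD8SP arrays (changes from -0.77 to -0.47), without a filter (adjusted p = 0.0650) and with the mean of all probes (0.344). Foxo3 had a change of -0.49 ± 0.16 (adjusted p = 0.0585, and 0.00935 with the block). At the first step, CD4intCD8+ over DP, 0 of the 4 genes were called and 1, lower, with the block, against 11.7% and 23.5% of all genes. The remaining sphingosine-1-phosphate receptors were dim: S1pr2 lay between 40.6 and 56.6 on every array and was not called, and S1pr3 and S1pr5 did not pass the filter.

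Of 11 listed genes of sphingosine-1-phosphate metabolism and related lipid enzymes 5 passed the filter. Cerk was the 1 called, in CD8SP over DP and in CD4intCD8+ over DP, against 19.8% and 11.7% of all genes. Cerk encodes ceramide kinase, which makes ceramide-1-phosphate and not sphingosine-1-phosphate, and the other 4 were not called. Cerk gave 128 and 139 in CD8SP, 127 and 162 in CD4intCD8+ and 360 and 422 in DP cells. It fell by 1.51 ± 0.16 in CD8SP against DP cells (adjusted p = 0.000470) and by 1.40 ± 0.16 in CD4intCD8+ against DP cells (adjusted p = 0.00240), both called under all 16 other settings. The lyase gene Sgpl1 and the phosphatase gene Sgpp1 had CD8SP over DP changes of 0.17 ± 0.17 and -0.11 ± 0.16.

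Of 18 genes of egress signalling and motility, 2 were higher, Ccr7 and Arrb2, and 2 lower, Rhoh and Cd97, in CD8SP than in DP cells, near the 11.5% higher and 8.35% lower over all genes. With the block the counts were 2 higher and 5 lower, against 30.0% of all genes in either direction. Ccr7 is also on the target list. Rhoh and Cd97 were also the 2 genes called in CD4intCD8+ over DP, at -0.75 ± 0.11 and -0.68 ± 0.15 (adjusted p = 0.00564 and 0.0215), against 11.7% of all genes. The block gave 1 higher and 7 lower, against 23.5% of all genes. The Rhoh call was lost without DP replicate 2 (0.0516), and the Cd97 call without any 1 of the 4 arrays compared (from 0.0551 to 0.119). Rhoh, an atypical GTPase of blood cells, had 733 and 795 in CD8SP and 1514 and 1747 in DP cells and fell by 1.09 ± 0.11 (adjusted p = 0.000337). For Cd97, an adhesion receptor listed as Adgre5, the change was -0.58 ± 0.15 (adjusted p = 0.0257), and the call was lost without either DP array or CD8SP replicate 1 (adjusted p from 0.0858 to 0.133). Arrb2, a beta-arrestin gene, was at 0.68 ± 0.19 (adjusted p = 0.0359), and at 0.210 and 0.163 in adjusted p without DP replicate 2 and CD8SP replicate 1, and 0.0689 without the intensity trend. Coro1a, whose loss in mice impairs thymic exit, was at -0.20 ± 0.07 (adjusted p = 0.0706), between 3157 and 3738 on every array.

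Of 16 genes of the PI3K and Akt pathway, which restrains Foxo1, 1 was higher and 2 lower in CD8SP than in DP cells, near the 19.8% called over all genes. With the block 1 was higher and 3 lower, against 30.0% of all genes. The list was not split into genes that promote the signalling and genes that oppose it. These counts therefore give no direction of pathway activity. Pik3cd, the delta catalytic subunit of lymphocytes, had 730 and 743 in CD8SP and 428 and 312 in DP cells and rose by 1.00 ± 0.16 (adjusted p = 0.00321), but by 0.37 in the mean of all its probes (adjusted p = 0.278). Inpp5d, the SHIP1 phosphatase gene, fell by 0.50 ± 0.13 (adjusted p = 0.0263) and Pik3cg, the gamma subunit, by 0.61 ± 0.16 (adjusted p = 0.0301). The Inpp5d call was lost without any 1 of the DP or CD8SP arrays (changes from -0.55 to -0.46) and with the actin ratio (adjusted p = 0.0644). The Pik3cg call was lost without either DP array or CD8SP replicate 1 (changes from -0.66 to -0.46) and without a filter (adjusted p = 0.0504). In CD4intCD8+ over DP Pik3cd (0.66 ± 0.16, adjusted p = 0.0316) and Inpp5d (-0.62 ± 0.13, adjusted p = 0.0185) were called, against 11.7% of all genes. The block gave 1 higher and 3 lower at this step, against 23.5% of all genes. The Pik3cd change was 0.14 in the mean of all probes (adjusted p = 0.729), and its call was lost without the trend (0.0691) and without DP replicate 2 or either CD4intCD8+ array (from 0.0515 to 0.155). The Inpp5d call was lost without either DP array or CD4intCD8+ replicate 2 (from 0.0922 to 0.121) and with the actin ratio (0.236). In CD8SP over CD4intCD8+ 0 of the 18 egress genes and 0 of the 16 PI3K genes were called, against 0.119% of all genes. With the block 1 gene of each list was higher, Ccr7 and Sgk1, against 2.08% of all genes. Sgk1, a kinase gene that also restrains Foxo factors, was at 0.82 ± 0.16 (adjusted p = 0.0300).

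Over the 6 arrays the genes most like S1pr1 in profile were Slfn1, Rab3ip and Adcy7, with Pearson correlations from 0.994 to 0.996. Klf2 was most like Nhlrc3 (0.998) and Babam2 (0.996), Foxo1 like Krt23 (0.998) and Aatf (0.998), S1pr4 like Mafk (0.998) and Otud4 (0.993), and Cd69 like Commd8 (0.994). The points share stages and replicates, and 231 genes correlated with S1pr1, 243 with Foxo1, 120 with Klf2 and 16 with Cd69 at more than 0.95, so that the order among them is a description only. Between the members the correlation was 0.969 for Klf2 and S1pr1, 0.976 for Foxo1 and S1pr1 and 0.304 for Cd69 and S1pr1.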

How the data were processed

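Total RNA of sorted thymocytes was converted to biotin-labelled cRNA and hybridised to 6 arrays, per the labels' protocols. The deposited table holds 1 linear intensity per probe and array. The sources used here do not say how the authors computed or scaled these intensities, but 3.60% of non-control values lay below 0, which shows that a background signal had been subtracted.

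Stage and replicate number came from the sample titles. Of 45037 non-control probes the platform annotation gave 34945 a single symbol, 932 more than 1 symbol and 9160 no symbol. For each of 18193 genes the brightest probe on average was kept. Negative values were raised to 0 before log2(intensity + 5.84) was taken, the pseudocount being the 10th percentile of positive values. Genes averaging below the 40th percentile (intensity 30.8) were dropped, which kept 10916. All 6 arrays were fitted with limma 3.58.1 (R 4.3.3; lmFit, eBayes with an intensity trend) by stage alone (degrees of freedom 3 residual, 6.05 prior), with Benjamini-Hochberg adjustment within each of 4 contrasts, called at an adjusted p under 0.05. The fit was tested on simulated data with noise independent between arrays. These held no shared deviation by replicate number and so give no check on leaving out the block. Single probes were fitted likewise, over 20967 probes.

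After subtraction of stage means, arrays of the same replicate number deviated together (correlations over genes 0.26, 0.30 and 0.21), and a pair of independent experiments is named in the labels, so the numbers were taken to pair the arrays. For members, results with replicate number as a block appear where a call changes. For the other lists they appear as counts of calls, and not every gene behind these counts is named. There were 16 alternative settings. The members, gene lists, marker lists and motifs were chosen with earlier results of these data known. Their counts and medians set against all genes are therefore a description only. Named genes are all members, up to 4 called genes of each other list with the largest change, list genes that the text counts, and the genes most like each member in profile.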

Additional observations from a re-analysis of the deposited data

How the results depend on the processing

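The 4 rises from DP to CD8SP cells (Klf2, Foxo1, S1pr1, S1pr4) were called under all 16 alternatives, and their direction did not change. Over members, contrasts and alternatives, 453 values kept direction and side of the threshold, 10 lost a call, 18 gained one and 23 changed sign; the cause was not tested. With the replicate number as a block, limma called 2562 genes in CD4intCD8+ over DP (1277 without), 227 in CD8SP over CD4intCD8+ (13), 3277 in CD8SP over DP (2166) and 215 in the difference of the steps (1), and 5, 4 and 5 members in the first 3. In CD4intCD8+ over DP the genes called were 764 with the mean of all probes, 407 with the actin ratio and 801 without the intensity trend. In CD8SP over CD4intCD8+ they were 8 with a 60th percentile filter or only the arrays compared, 34 with the actin ratio and 2 on averaging all probes. In the difference of the steps they were 6 with the actin ratio and 0 with a pseudocount of 32, no filter, the mean of all probes, quantile normalization or no trend. Members called in CD4intCD8+ over DP were 0 without the trend and 1 without a filter or with the mean of all probes, and in CD8SP over CD4intCD8+ 1 with the actin ratio. Leaving out 1 array gave 187 to 1399 genes in CD4intCD8+ over DP (0 to 2 members), 6 to 70 in CD8SP over CD4intCD8+ (0 to 1), 1018 to 2345 in CD8SP over DP (4 to 5) and 0 to 61 in the difference of the steps. Sign changes of uncalled values were Klf3 -0.26 in CD8SP over DP and Foxo1 -0.15 in the difference of the steps with the mean of all probes. Under the actin covariate they were Foxo1 -0.043 in that difference, Klf13 -0.12 in CD8SP over CD4intCD8+ and Foxp1 0.067 in CD8SP over DP. Leaving out 1 array moved Cd69 from -0.19 to 0.38 in CD4intCD8+ over DP, from -0.38 to 0.22 in CD8SP over CD4intCD8+ and from -0.29 to 0.31 in CD8SP over DP, Foxp1 from -0.17 to 0.12 in CD8SP over DP and Klf13 from -0.17 to 0.45 in CD8SP over CD4intCD8+. In the difference of the steps the ranges were -0.75 to 0.40 for Cd69, -1.23 to 0.57 for Klf2, -0.87 to 0.12 for S1pr1 and -0.042 to 0.15 for Foxo1. The number of arrays, 2 per stage, limits the precision of every value, and signal close to background limits S1pr1 and Il7r in DP cells.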
